A study of Homo sapiens with 22 samples.

Results

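The 45 genes described here encode the machinery of DNA replication, from the licensing of origins through the replisome to the supply of nucleotides. They were taken by symbol from a list based on function and not by a cut on a measured value. Earlier results of these data were known when the list was made, however. All 45 were among the 35237 genes of the count table. The RNA came from human neuroblastoma cells of the established lines SK-N-AS and GIMEN, both called mesenchymal in the labels. The study set untreated cells beside cells treated for up to 30 days with PP121, an inhibitor of tyrosine kinases and phosphoinositide 3-kinases, and bufalin, a cardiac glycoside that blocks the sodium-potassium pump.

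Untreated SK-N-AS cells grew in DMEM with 10% fetal bovine serum (n = 4 libraries). S1D4 cells had received 5 µM PP121 for 4 days in DMEM with 1% serum (n = 4). S2D4 and S2D30 cells had passed through that stage and then received 5 µM PP121 with 100 nM bufalin in Neurobasal medium with B27 supplement, for 4 and 30 days (n = 4 each). Untreated GIMEN cells grew in RPMI with 10% serum (n = 3), and GIMEN D30 cells had received 2.5 µM PP121 with 10 nM bufalin in RPMI with 1% serum for 30 days (n = 3). No group analysed here had the low serum or the Neurobasal medium without a compound, so that effects of the compounds and of the medium cannot be told apart. The labels number the libraries of a group but do not say that they came from separate cultures, and the p-values measure only the spread between these libraries, which may be technical.

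As background, the origin recognition complex marks origins in the G1 phase, and CDC6 and CDT1 load the MCM helicase there. The kinase CDC7 with its partner DBF4 then acts with cyclin-dependent kinases to bring CDC45 and the GINS complex to MCM, which forms the active helicase. DNA polymerases alpha, delta and epsilon copy the strands behind it, with the sliding clamp PCNA and its loader RFC. Many of these genes are transcribed ahead of S phase under E2F transcription factors, and cells that leave the cycle are known to lower their transcripts.

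Words that E2F factors are known to bind were searched in the DNA around the start sites of these genes, and promoter sequence from RefSeq (GRCh38.p14) was available for 40 of the 45. MCM4, MCM5, GINS4, POLD3 and RPA2 had no entry. Windows ran from 250 bases before to 50 bases after a start, and the 40 genes had 52 of them. The E2F words TTTCCCGC, TTTGGCGC, TTTGCCGC and TTTCGCGC were searched on both strands, and overlapping words were allowed. At least 1 word was present in 23 of the 52 windows (44.2%), against 3.31% of all 35116 windows in the table and 4.45% of the windows of genes tested in SK-N-AS. A CCAAT word was present in 53.8% of the windows of the 40 genes, in 34.6% of all windows and in 34.2% of those of genes tested in SK-N-AS. The CHR words TTTGAA and TTTAAA, which mark many genes of the later cell cycle, were present in 13.5%, 23.99% and 17.9% in the same order. Such a match is a description of the letters and not a measured binding site.

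The 100 bases before the start are shown for 7 genes with a word and for TK1 and MCM10, whose transcripts fell most in S2D30 and whose windows held no such word. Each is written 5′ to 3′ on the strand of the gene, with the E2F words in capitals. Where several starts were listed, the window with a word was used, and for TK1 that of the most upstream start. E2F1 (chr20:33686386-33686485, minus strand) and E2F2 (chr1:23531234-23531333, minus strand) encode 2 of the E2F factors themselves. CDT1 (chr16:88803689-88803788, plus strand) and MCM6 (chr2:135876444-135876543, minus strand) act in licensing, as does MCM7 (chr7:100101398-100101497, minus strand). GINS2 (chr16:85688955-85689054, minus strand) belongs to the helicase, PCNA (chr20:5126623-5126722, minus strand) is the clamp, and the last pair are TK1 (chr17:78187205-78187304, minus strand) and MCM10 (chr10:13161458-13161557, plus strand).
E2F1: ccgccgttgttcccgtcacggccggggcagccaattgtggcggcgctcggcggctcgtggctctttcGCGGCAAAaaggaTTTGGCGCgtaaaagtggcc
E2F2: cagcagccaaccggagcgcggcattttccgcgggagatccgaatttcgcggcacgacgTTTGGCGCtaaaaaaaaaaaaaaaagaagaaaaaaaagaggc
CDT1: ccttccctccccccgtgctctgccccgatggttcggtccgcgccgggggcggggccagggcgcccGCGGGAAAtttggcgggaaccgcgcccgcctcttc
MCM6: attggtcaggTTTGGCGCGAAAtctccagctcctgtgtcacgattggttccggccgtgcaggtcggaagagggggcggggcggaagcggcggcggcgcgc
MCM7: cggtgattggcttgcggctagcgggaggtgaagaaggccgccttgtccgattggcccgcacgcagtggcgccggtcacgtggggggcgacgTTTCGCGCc
GINS2: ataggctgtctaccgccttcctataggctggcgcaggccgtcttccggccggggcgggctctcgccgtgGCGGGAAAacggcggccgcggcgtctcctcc
PCNA: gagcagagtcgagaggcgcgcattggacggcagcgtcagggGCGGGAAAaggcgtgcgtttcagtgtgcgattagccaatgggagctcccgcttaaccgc
TK1: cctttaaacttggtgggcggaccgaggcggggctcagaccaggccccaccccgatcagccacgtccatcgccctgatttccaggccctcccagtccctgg
MCM10: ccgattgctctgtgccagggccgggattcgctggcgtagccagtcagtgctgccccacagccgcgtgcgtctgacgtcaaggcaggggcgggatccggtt

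In E2F1 the words lay at bases -33 to -26 and -20 to -13, counted backward from -1 as the base just before the start, and in E2F2 at -42 to -35. MCM6 held 4 words in its whole window, in pairs that overlap, and the printed stretch shows the pair that spans bases -90 to -79. The median log2 fold change against untreated cells was -1.17 for the 23 genes with a word and -1.35 for the 17 without in S1D4, -1.37 and -1.49 in S2D4, -2.47 and -2.42 in S2D30, and -3.03 and -3.08 in GIMEN D30. From S2D4 to S2D30 it was -1.51 with a word and -1.04 without. These contrasts were not tested.

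Levels are given as counts normalised to library size (CPM) on a scale common to all 22 libraries, which held 16456484 to 37506800 counts. The summed level of the 45 genes was 3537 to 4485 CPM in the untreated SK-N-AS libraries. It lay at 1690 to 2189 after S1D4, 1711 to 2395 after 4 days of the second stage and 904 to 917 after 30 days. GIMEN libraries had 4503 to 4720 CPM without treatment and 647 to 665 with it. MKI67, a marker of cycling cells that is not among the 45, went from 135 to 262 CPM in untreated SK-N-AS to 27.1 to 79.6, 16.8 to 24.01 and 0 to 0.431 in S1D4, S2D4 and S2D30. In GIMEN it went from 237 to 264 to 1.99 to 2.84 CPM. In bulk RNA, fewer cycling cells and less of a transcript in each cell cannot be told apart.

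**Figure D1:**
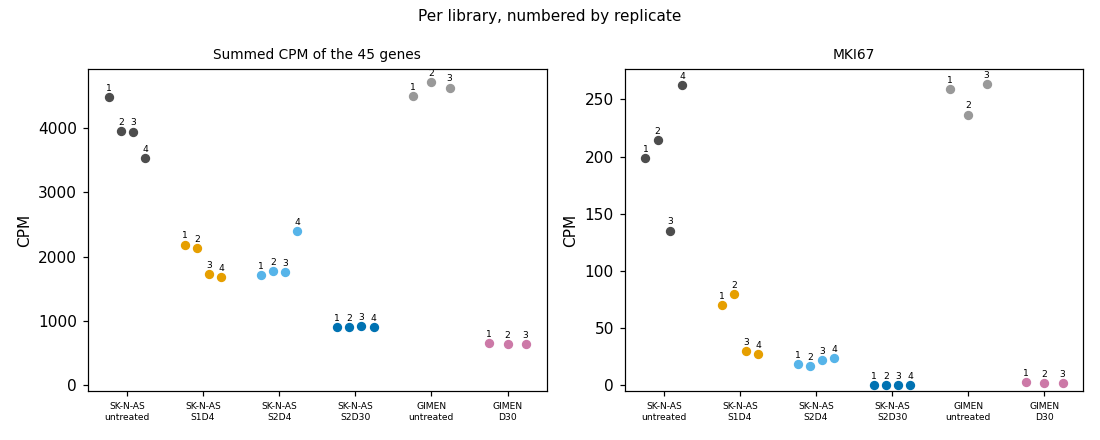
Summed CPM of the 45 replication genes (left) and CPM of MKI67 (right) for each library, on linear axes. Each point is 1 library with its replicate number, by group; the sums of S2D30 lie between 904 and 917 CPM, and replicate 4 of S2D4 stands at 2395 above 1711 to 1773 in the others.

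Some libraries stood apart within their group. Replicate 4 of S2D4 had the highest level of its group for 33 of the 45 genes and the lowest for 9, with a median ratio of 1.31 to the mean of the other 3. In S1D4, replicates 1 and 2 lay above replicates 3 and 4 for 42 of the 45 genes, and MKI67 was 70.4 and 79.6 CPM in the former and 30.3 and 27.1 in the latter. In untreated SK-N-AS the same order held for 20 genes. Values without such libraries are given below for the results they move most.

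Of the 12 mesenchymal markers examined, 12 exceeded 1 CPM in untreated SK-N-AS and 11 in untreated GIMEN, while 10 of 11 adrenergic markers did so in untreated SK-N-AS and 4 in untreated GIMEN. The adrenergic list summed to 1719 to 2103 CPM and the mesenchymal list to 906 to 1521 in untreated SK-N-AS, so that the label was only partly borne out in that line. The mesenchymal list summed to 1424 to 1650, 2951 to 6253 and 4310 to 4693 CPM in S1D4, S2D4 and S2D30, with replicate 4 of S2D4 the lowest of its group, and to 39474 to 40658 and 21811 to 24939 in untreated and D30 GIMEN. The mesenchymal sum was mostly VIM in the SK-N-AS groups and mostly FN1 in both GIMEN groups. In S2D30, VIM was at 293% of untreated and FN1 at 3.04%. In GIMEN D30, FN1 was at 56.3% and TNC at 982%, so these sums do not describe that list as a whole. The adrenergic list summed to 1492 to 1809, 611 to 955 and 212 to 258 CPM in S1D4, S2D4 and S2D30, and to 465 to 480 and 247 to 295 in untreated and D30 GIMEN, with 4 of its genes at 0 in untreated GIMEN. The part of these shifts in the results was not tested. Of 8 leukocyte markers, 3 exceeded 1 CPM in untreated SK-N-AS, where the list summed to 174 to 212 CPM. That sum was mostly PTPRC (161 to 203 CPM), and CD3E and MS4A1 were at 0 counts in all 16 SK-N-AS libraries. PTPRC was at 49.2 to 65.2, 22.5 to 24.4 and 0.517 to 1.33 CPM in S1D4, S2D4 and S2D30, and its part in the results was not tested. The leukocyte list summed to 76.9 to 97.1, 102 to 156 and 98.3 to 148 CPM in these groups, and to 89.5 to 103 and 175 to 410 in untreated and D30 GIMEN. In S2D4, S2D30 and both GIMEN groups the sum was mostly CD68. That gene was at 894% of untreated in S2D30 and 306% in GIMEN D30, while PTPRC was at 0.465% in S2D30, so the sums do not describe the list as a whole. The 5 endothelial markers summed to at most 10.2 CPM in any SK-N-AS library and to 24.96 to 30.6 in GIMEN D30.

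Transcripts of the replication genes were lower after every treatment. A gene was called lower or higher when the adjusted p of edgeR's quasi-likelihood test was under 0.05, with adjustment over all genes tested. In S1D4, 44 of the 45 genes were lower and 0 higher, where 22.4% of all tested genes were lower and 17.6% higher. In S2D4, 43 were lower and 0 higher, against 32.2% and 30.9% of all tested genes. In S2D30, all 45 were lower, against 36.5% lower and 33.8% higher over all genes. In GIMEN D30, 44 were lower and 0 higher, against 36% and 35.5%. The 3 SK-N-AS comparisons share the untreated libraries and are not independent of each other.

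The depth of the falls grew between the early and the late groups. The median log2 fold change of the 45 was -1.17 in S1D4, -1.39 in S2D4, -2.46 in S2D30 and -3.08 in GIMEN D30, whereas the median of all tested genes lay between -0.03 and 0.02. As a share of the untreated mean, the median gene was at 44.4%, 38.1%, 18.01% and 11.9%. The log2 fold changes of single genes ran from -8.07 to -0.50 in S2D30 and from -7.53 to -0.18 in GIMEN D30. Every treated library lay below every untreated library for 44 genes in S1D4 (20.4% of all tested genes), 40 in S2D4 (26.3%), 45 in S2D30 (34.4%) and 44 in GIMEN D30 (37.8%). In S1D4 the median was -1.04 with only replicates 1 and 2 of the untreated and S1D4 groups and -1.33 with only replicates 3 and 4, with 41 and 40 genes lower.

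**Figure D2:**
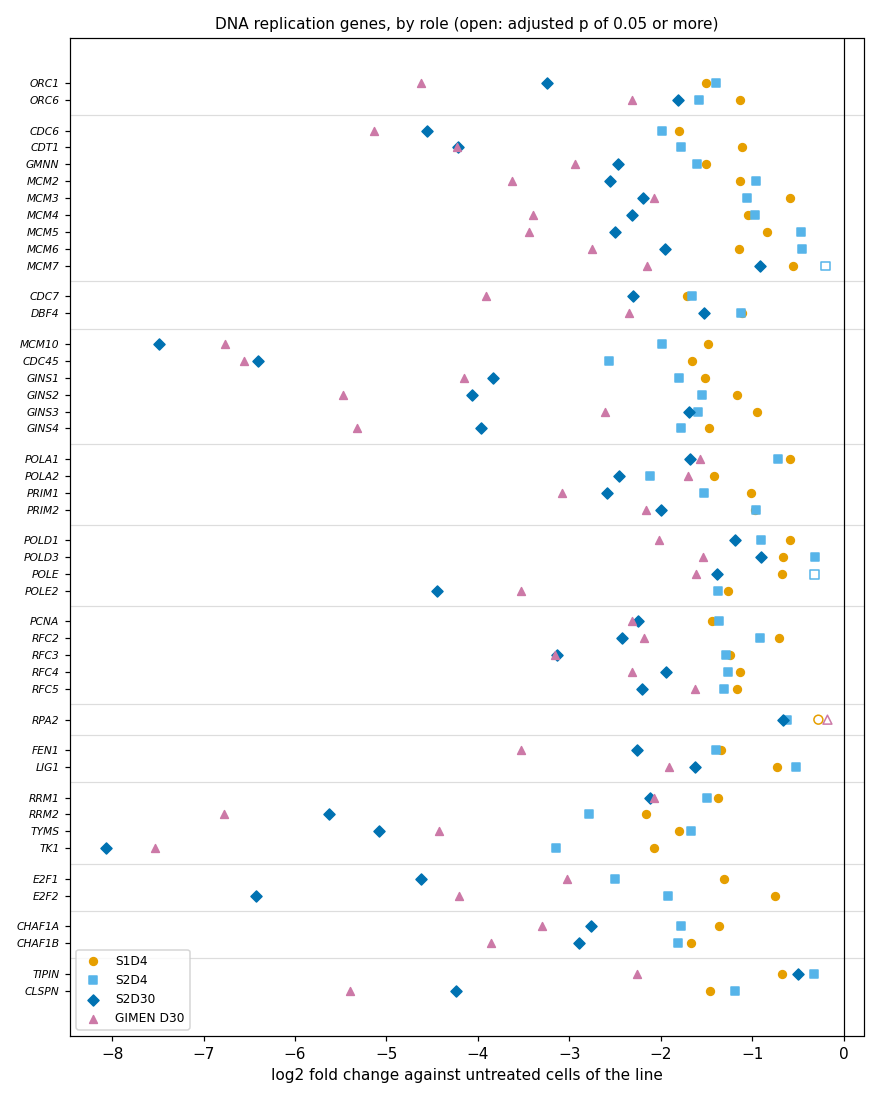
Log2 fold change of each of the 45 genes against untreated cells of the same line, grouped by role from origin recognition (top) to fork protection (bottom). Circles, squares and diamonds are S1D4, S2D4 and S2D30 of SK-N-AS, triangles are GIMEN D30, and open symbols had an adjusted p of 0.05 or more; the points of TK1, MCM10, CDC45 and RRM2 lie farthest left, and RPA2 lies nearest 0 in S1D4 and GIMEN D30, MCM7 in S2D4 and TIPIN in S2D30.

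The gene models set a limit on some of these values. In the GENCODE v29 annotation, which may not be the authors', TYMS shares 64.6% of its exon bases with genes on the opposite strand (ENOSF1 and TYMSOS), MCM2 32.0%, GINS4 23.6% and GINS3 16.5%. POLA2 shares 53.7% with another gene on the same strand, RRM2 27.9%, PRIM1 25.99% and POLD1 12.1%. TIPIN shares 17.6% of its 75-base words with other genes, most often with the pseudogene RPL9P25. Of the further genes described, POLD4 shares 33.1% of its exon bases with AP003419.1 on the same strand, and TK2 shares 26.05% with genes on the opposite strand. PCLAF shares 30.4% of its 75-base words with other genes, most often with AC087632.1. How reads of such stretches were counted is not given in the sources used here, so the values of these genes are uncertain to that extent.

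In untreated cells the levels of the 45 genes differed widely, on a scale of CPM per kilobase of annotated exon. In SK-N-AS the highest were PCNA at 117 ± 26.5 (SD, n = 4), TYMS at 108 ± 18.8 and MCM7 at 107 ± 14.5, whose libraries overlapped. In GIMEN they were TK1 at 159.7 ± 5.84 (SD, n = 3), MCM7 at 133 ± 4.47 and PCNA at 119 ± 5.51, which did not overlap. POLD3 was lowest in SK-N-AS at 3.81 ± 0.531 CPM per kilobase, and E2F2 in GIMEN at 1.20 ± 0.0844.

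Both origin recognition genes on the list were lower in each treated group. ORC1, the ATPase subunit whose transcript follows the cell cycle, was at 32.6, 27.97, 26.3 and 26.1 CPM in untreated SK-N-AS cells, 11.997, 12.01, 8.92 and 6.66 in S1D4, 9.39, 8.92, 8.81 and 15.8 in S2D4 and 2.89, 2.54, 3.498 and 2.82 in S2D30. Its treated libraries lay below the untreated libraries in each group. The log2 fold change in S2D30 was -3.24 (SE 0.22, adjusted p = 1.5e-09). In GIMEN, ORC1 went from 34.9, 38.9 and 38.4 to 1.24, 1.78 and 1.54 CPM, to 4.06% of the untreated mean. ORC6, the smallest subunit, fell less, with log2 fold changes of -1.13, -1.58 and -1.81 in S1D4, S2D4 and S2D30 and -2.31 in GIMEN D30. ORC2, ORC3, ORC4 and ORC5, the other core subunits, ended S2D30 at log2 fold changes of 0.06, -0.36, 0.17 and -0.33, of which those of ORC3 and ORC5 were called lower. In GIMEN D30 they were -0.08, -0.23, 0.09 and -0.92, again with ORC3 and ORC5 called. ORC2 was at 41.8, 37.3, 41.7 and 41.8 CPM in untreated SK-N-AS and 44.9, 38.8, 40.4 and 43.6 in S2D30, and these ranges overlap. ORC2 was called lower in S1D4, at -0.35 (SE 0.07, adjusted p = 7.6e-04). In S2D4 it had a log2 fold change of 0.16 (SE 0.07, adjusted p = 0.054), not called. It was called higher in 7 of 19 alternatives, among them the size factors of DESeq2, at 0.17.

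**Figure D3:**
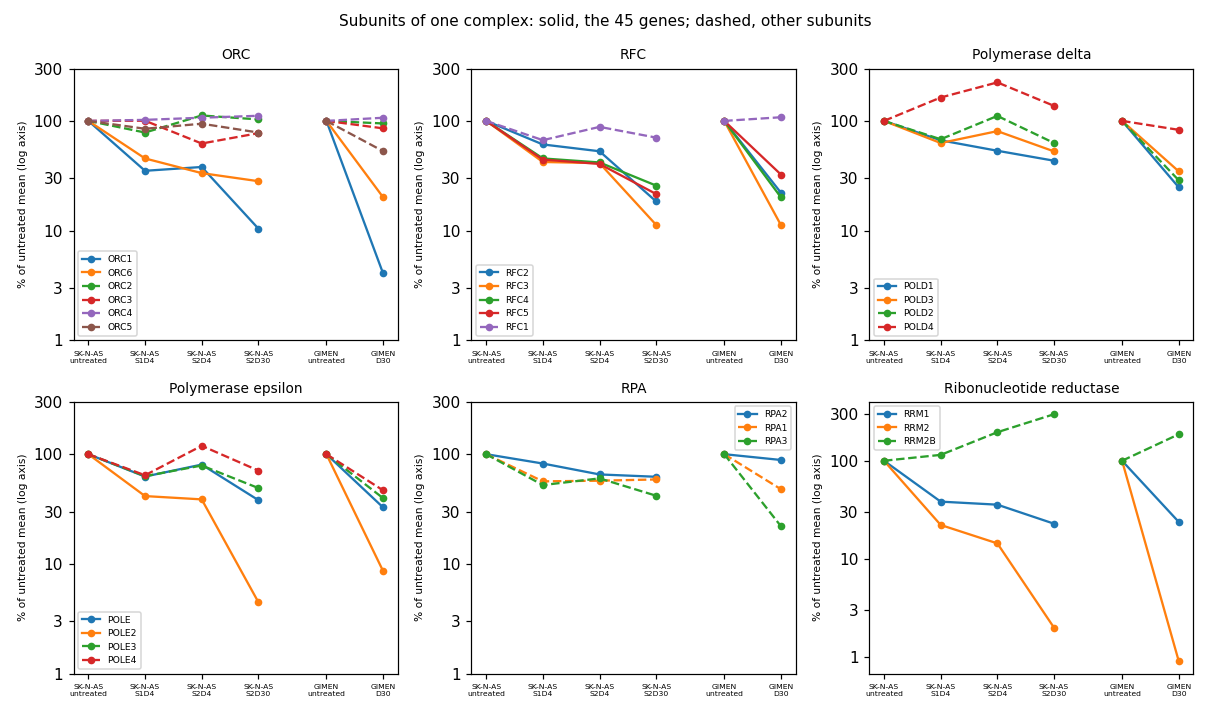
Mean CPM of subunits of 6 complexes as a percentage of the untreated mean of the same line, on a log axis, across the 4 SK-N-AS groups and the 2 GIMEN groups. Solid lines are subunits among the 45 genes and dashed lines are other subunits; RRM2B rises where RRM2 falls to 1.995% and 0.911%, and ORC2 and ORC4 end near 100%.

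All 9 licensing genes were lower in S1D4, S2D30 and GIMEN D30, and 8 of 9 in S2D4. CDC6, which loads MCM onto origins, was at 62.8, 54.6, 53.5 and 48.3 CPM in untreated SK-N-AS cells, 18.6, 17.2, 14.1 and 12.8 in S1D4, 13.3, 11.2, 10.4 and 20.2 in S2D4 and 2.41, 1.95, 2.52 and 2.27 in S2D30. It ended at 4.17% of the untreated mean, with a log2 fold change of -4.56 (SE 0.21, adjusted p = 1.2e-11). In GIMEN, CDC6 went from 92.2, 98.1 and 99.8 to 2.43, 2.601 and 3.21 CPM. CDT1, its partner in loading, ended at 5.29% in S2D30 and 5.32% in GIMEN D30, and GMNN, which encodes the CDT1 inhibitor geminin, at 17.8% and 13.1%.

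The 6 subunits of the MCM2-7 ring fell by different amounts. In S2D30 the log2 fold changes were -2.56 for MCM2, -2.19 for MCM3, -2.32 for MCM4, -2.51 for MCM5, -1.96 for MCM6 and -0.91 for MCM7. In GIMEN D30 they were -3.63, -2.08, -3.40, -3.44, -2.75 and -2.15 in the same order. The smallest SK-N-AS fall of the ring was thus that of MCM7, and in GIMEN it was that of MCM3. MCM7 was at 457, 389, 389.6 and 328 CPM in untreated SK-N-AS cells, 287, 289, 247 and 241 in S1D4, 287, 298, 310.3 and 471 in S2D4 and 208, 203, 209 and 203 in S2D30. Replicate 4 of S2D4 lay above every untreated library and the other 3 below all of them, and the change was -0.20 (SE 0.14, adjusted p = 0.22), not called. Without that library it was -0.39 with an edgeR adjusted p of 0.0013. In GIMEN, MCM7 went from 468, 493 and 499 to 113, 116 and 101 CPM. MCM5 showed the same library, at 69.4, 81.8, 71.5 and 151 CPM in S2D4 beside 157, 132, 128 and 97.98 in untreated cells, with a log2 fold change of -0.46 (SE 0.19, adjusted p = 0.047). That call was lost when replicate 1, 2 or 3 of untreated cells or of S2D4 was left out, with edgeR adjusted p of 0.076 to 0.16. MCM6 was at 118, 101, 105 and 101 CPM in untreated SK-N-AS cells, 53.9, 48.5, 46.1 and 42.8 in S1D4, 72.7, 78.1, 76.5 and 84.2 in S2D4 and 24.4, 30.2, 31.2 and 22.4 in S2D30, so that every S2D4 library lay above every S1D4 library.

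CDC7 and DBF4, the kinase that fires licensed origins and its activating subunit, were lower in all 4 comparisons with untreated cells. CDC7 was at 49.03, 46.2, 47.1 and 48.8 CPM in untreated SK-N-AS cells, 16.7, 16.2, 13.8 and 11.6 in S1D4, 16.1, 16.9, 16.5 and 11.6 in S2D4 and 9.31, 9.48, 10.3 and 9.15 in S2D30. In GIMEN it went from 25.7, 29.1 and 26.7 to 2.07, 1.396 and 1.93 CPM. CDC7 had thus lost most of its level by S1D4 in SK-N-AS, at 30.5% of untreated, and reached 20.02% in S2D30 and 6.61% in GIMEN D30. DBF4 was at 45.99%, 46.1% and 34.2% of untreated in S1D4, S2D4 and S2D30, and at 19.7% in GIMEN D30.

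Genes of helicase activation held some of the deepest falls of the list. MCM10, which helps to start the assembled helicase, was at 51.1, 46.2, 50.2 and 57.998 CPM in untreated SK-N-AS cells, 20.8, 21.3, 14.98 and 16.4 in S1D4, 11.5, 10.3, 10.02 and 19.9 in S2D4 and 0.388, 0.0499, 0.221 and 0.428 in S2D30. The S2D30 libraries held 9, 1, 5 and 10 counts of it. The log2 fold change was -7.49 (SE 0.34, adjusted p = 8.7e-12), with -1.98 from untreated cells to S2D4 and -5.50 from S2D4 to S2D30. In GIMEN, MCM10 went from 40.8, 42.8 and 40.7 to 0.237, 0.317 and 0.578 CPM. CDC45, the helicase cofactor, was at 85.7, 74.4, 64.2 and 50.7 CPM in untreated SK-N-AS cells, 29.8, 28.001, 14.3 and 14.6 in S1D4, 10.03, 8.92, 11.2 and 15.96 in S2D4 and 0.732, 0.848, 0.531 and 1.07 in S2D30, with log2 fold changes of -6.41 (SE 0.34, adjusted p = 5.7e-11) in S2D30 and -6.56 (SE 0.19, adjusted p = 1.5e-10) in GIMEN D30.

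The 4 GINS subunits, which form a single complex with each other, ended at different shares of their untreated level, a contrast that was not tested. In S2D30 GINS1, GINS2 and GINS4 were at 6.91%, 5.89% and 6.29% of untreated and GINS3 at 30.7%. In GIMEN D30 they were at 5.64%, 2.22%, 2.52% and 16.4%. GINS3 was at 11.01, 12.9, 11.3 and 15.7 CPM in S2D4 and 12.2, 11.7, 11.8 and 11.4 in S2D30, and its change between these groups, -0.10 (SE 0.15, adjusted p = 0.6), was not called. GINS2 was at 21.5, 13.5, 16.04 and 11.6 CPM in untreated SK-N-AS and 0.905, 0.948, 0.974 and 0.855 in S2D30.

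The 4 genes of DNA polymerase alpha and primase, which lay down the primers, were lower in every comparison with untreated cells. POLA1, the catalytic subunit, was at 80.1, 71.1, 81.4 and 91.1 CPM in untreated SK-N-AS cells, 58.3, 51.97, 54.2 and 49.8 in S1D4, 54.5, 53.2, 48.8 and 41.1 in S2D4 and 24.6, 24.1, 23.9 and 27.4 in S2D30. Its log2 fold change was -0.59 in S1D4 and -1.68 (SE 0.10, adjusted p = 2.4e-10) in S2D30, and -1.57 (SE 0.07, adjusted p = 7.5e-09) in GIMEN D30, among the 3 smallest falls in that line. The accessory subunit POLA2 had reached 23.1% of untreated by S2D4 and was at 18.01% in S2D30, a step of -0.34 (SE 0.16, adjusted p = 0.081) that was not called. The primase subunits PRIM1 and PRIM2 ended S2D30 at 16.5% and 24.7%.

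Among polymerases delta and epsilon, which extend the lagging and leading strands, the accessory subunit POLE2 stood apart from the other 3. POLE2 was at 14.1, 11.9, 10.2 and 9.76 CPM in untreated SK-N-AS cells, 6.04, 6.03, 3.66 and 3.33 in S1D4, 4.02, 4.46, 4.62 and 4.68 in S2D4 and 0.388, 0.399, 0.753 and 0.513 in S2D30, which is 4.47% of untreated. POLD1 and POLE, the catalytic subunits, were at 43.3% and 38.1%, and POLD3 at 52.7%. POLE was at 177, 219, 163 and 214 CPM in untreated SK-N-AS cells, 123, 139.6, 109.6 and 110.2 in S1D4, 129, 117, 142 and 233 in S2D4 and 81.2, 65.97, 62.4 and 84.7 in S2D30. Replicate 4 again lay highest in S2D4, where the change was -0.32 (SE 0.19, adjusted p = 0.14), not called, and -0.59 with an edgeR adjusted p of 0.0013 without that library. POLD3 was at 17.3, 16.8, 16.4 and 12.5 CPM in untreated SK-N-AS cells, 10.4, 10.1, 9.64 and 9.4999 in S1D4, 14.8, 11.5, 13.5 and 10.99 in S2D4 and 9.35, 8.28, 8.01 and 7.57 in S2D30. Its S2D4 change of -0.31 (SE 0.13, adjusted p = 0.04) was lost when replicate 1, 2 or 3 of untreated cells or replicate 2 or 4 of S2D4 was left out, with edgeR adjusted p of 0.083 to 0.12. The processing moved this call too. It was lost with TMM without the 20 highest genes (edgeR adjusted p = 0.0504), no filter (0.12) or the compared groups alone (0.13). With only replicates 3 and 4 of the untreated and S1D4 groups the value was 0.39.

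Of the other subunits of these polymerases, POLD2 and POLE4 were lower in S1D4, S2D30 and GIMEN D30, and POLE3 in all 4 comparisons. POLD4, the small subunit of polymerase delta, was at 15.9, 15.8, 13.5 and 9.43 CPM in untreated SK-N-AS cells, 21.6, 18.96, 25.5 and 23.2 in S1D4, 23.4, 29.1, 28.4 and 41.7 in S2D4 and 16.2, 21.8, 22.4 and 14.4 in S2D30. It was higher in these groups by log2 fold changes of 0.71 (SE 0.20, adjusted p = 0.0086), 1.17 (SE 0.20, adjusted p = 7.7e-05) and 0.47 (SE 0.20, adjusted p = 0.043), and lower in GIMEN D30 at -0.27 (SE 0.06, adjusted p = 0.0018), subject to the overlap of its gene model. POLD2 in S2D4 had a log2 fold change of 0.15 (SE 0.12, adjusted p = 0.3), not called, and 0.28 with an edgeR adjusted p of 0.049 without replicate 1 of untreated cells.

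PCNA, the sliding clamp, was at 222, 165, 176 and 128 CPM in untreated SK-N-AS cells, 81.4, 72.1, 48.5 and 50.3 in S1D4, 61.9, 66.4, 59.3 and 81.7 in S2D4 and 34.1, 36.5, 38.1 and 34.4 in S2D30. In GIMEN it went from 171, 171 and 185 to 35.7, 34.3 and 36.2 CPM. The falls were close in the lines, at log2 fold changes of -2.25 (SE 0.18, adjusted p = 6.9e-09) in S2D30 and -2.31 (SE 0.06, adjusted p = 1.1e-10) in GIMEN D30. The clamp loader subunits RFC2, RFC3, RFC4 and RFC5 ended S2D30 at 18.4%, 11.2%, 25.7% and 21.5% of untreated. RFC1, the large subunit of the same loader and not among the 45, was at 88.3, 83.8, 91.6 and 99.005 CPM in untreated SK-N-AS and 63.5, 60.8, 66.1 and 64.9 in S2D30, a log2 fold change of -0.49 (SE 0.07, adjusted p = 6.5e-06). In GIMEN D30 the change of RFC1 was 0.11 (SE 0.14, adjusted p = 0.51), not called, and 0.30 with an edgeR adjusted p of 0.0018 without replicate 1 of D30.

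RPA2, a subunit of the complex that coats single-stranded DNA, changed least among the 45 in GIMEN. It was at 115, 91.8, 99.6 and 73.6 CPM in untreated SK-N-AS cells, 90.7, 79.9, 71.8 and 69.8 in S1D4, 57.1, 62.6, 61.3 and 67.2 in S2D4 and 58.6, 62.97, 61.1 and 53.6 in S2D30. The S1D4 libraries overlapped the untreated ones, and the change of -0.28 (SE 0.11, adjusted p = 0.062) was not called. It was called without replicate 4 of untreated cells (-0.37, edgeR adjusted p = 0.0066) and without replicate 1 of S1D4 (-0.35, adjusted p = 0.027). RPA2 was lower in S2D30 at -0.67 (SE 0.11, adjusted p = 5.9e-05). In GIMEN it was at 18.5, 22 and 20.997 CPM in untreated cells and 20.9, 18.6 and 14.9 in D30, with overlapping libraries and a change of -0.18 (SE 0.12, adjusted p = 0.21). Its partners RPA1 and RPA3 were lower in all 4 comparisons, at -0.75 and -1.24 in S2D30 and -1.06 and -2.18 in GIMEN D30.

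FEN1, which trims Okazaki fragments, was at 179.9, 151, 166 and 121 CPM in untreated SK-N-AS cells, 72.1, 66.02, 50.6 and 53.004 in S1D4, 52.4, 53.7, 53.4 and 75.6 in S2D4 and 30.1, 32.2, 34.8 and 29.9 in S2D30. In GIMEN it went from 157, 171 and 166 to 13.3, 13.1 and 16.3 CPM, a log2 fold change of -3.53 (SE 0.09, adjusted p = 4.1e-11). LIG1, the ligase that joins the fragments, was at 60.2%, 70.05% and 31.98% of untreated in S1D4, S2D4 and S2D30 and at 26.6% in GIMEN D30.

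Nucleotide supply held the deepest fall of the list in each comparison with untreated cells, that of RRM2 in S1D4 at -2.16 (SE 0.31, adjusted p = 3.9e-05) and that of TK1 in S2D4, S2D30 and GIMEN D30. TK1, the thymidine kinase of dividing cells, was at 113, 91.8, 87.3 and 65.7 CPM in untreated SK-N-AS cells, 27.99, 26.98, 15.3 and 14.2 in S1D4, 6.84, 6.09, 5.87 and 21.02 in S2D4 and 0.345, 0.249, 0.177 and 0.513 in S2D30. The S2D30 libraries held 8, 5, 4 and 12 counts of it. The log2 fold change was -8.07 (SE 0.53, adjusted p = 8.5e-10). In GIMEN, TK1 went from 265, 285 and 277 to 1.301, 1.71 and 1.48 CPM, a change of -7.53 (SE 0.10, adjusted p = 2.1e-12). RRM2, the small subunit of ribonucleotide reductase made in S phase, was at 135, 112, 106 and 100.1 CPM in untreated SK-N-AS cells, 34.6, 32.9, 17.4 and 15.7 in S1D4, 11.98, 10.7, 12.03 and 30.6 in S2D4 and 2.37, 2.15, 2.44 and 2.095 in S2D30, a final log2 fold change of -5.63 (SE 0.38, adjusted p = 9.7e-10). In GIMEN, RRM2 went from 346, 353 and 346 to 3.904, 2.66 and 2.96 CPM. The large subunit RRM1 fell less, from 152, 129, 129 and 124 to 27.96, 31.2, 35.95 and 27.1 CPM in S2D30 and from 179, 183 and 173 to 43.5, 35.8 and 48.1 in GIMEN D30.

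RRM2B, the alternative small subunit that also serves cells outside S phase, moved the other way. It was at 17.4, 15.3, 17.6 and 23.3 CPM in untreated SK-N-AS cells, 20.1, 19.4, 25.2 and 19.9 in S1D4, 34.3, 36.01, 33.1 and 40.5 in S2D4 and 53.9, 57.7, 55.7 and 52.2 in S2D30. The change was 0.20 (SE 0.12, adjusted p = 0.21) in S1D4, not called, and RRM2B rose by 0.96 (SE 0.12, adjusted p = 3.6e-06) in S2D4 and 1.59 (SE 0.12, adjusted p = 5.9e-09) in S2D30. Without replicate 4 of untreated cells the S1D4 change was 0.35 with an edgeR adjusted p of 0.012. In GIMEN it rose from 127, 119 and 116 to 241, 204 and 229 CPM, by 0.89 (SE 0.07, adjusted p = 6.0e-07). TYMS, thymidylate synthase, was at 218, 181, 179.7 and 141 CPM in untreated SK-N-AS and 4.91, 4.94, 5.05 and 5.99 in S2D30, subject to the overlap of its gene model given above. The mitochondrial thymidine kinase TK2 was higher in S1D4 at 0.99 (SE 0.15, adjusted p = 6.3e-05), in S2D30 at 0.43 (SE 0.15, adjusted p = 0.015) and in GIMEN D30 at 0.80 (SE 0.06, adjusted p = 2.2e-07).

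**Figure D4:**
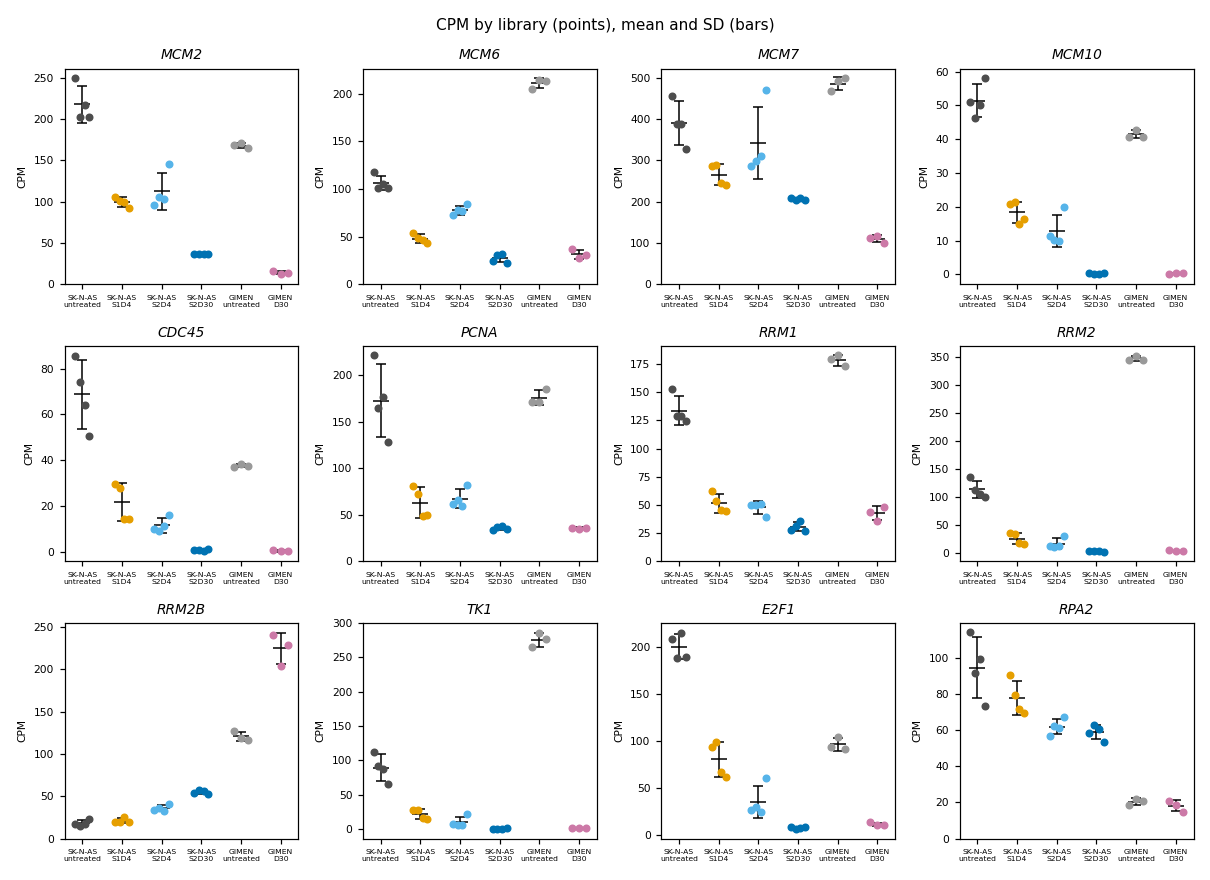
CPM of 12 genes by library (points, in replicate order within a group), with the mean and SD of each group as a bar, on linear axes that differ between panels. RRM2B, which is not among the 45, is shown beside RRM1 and RRM2; replicate 4 of S2D4 is the high point of MCM7 at 471 CPM, and RPA2 shows overlapping libraries in GIMEN.

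The activator genes E2F1 and E2F2 fell at every stage of the SK-N-AS treatment. E2F1 was at 208, 188, 215 and 189 CPM in untreated SK-N-AS cells, 93.6, 99.1, 67.2 and 61.9 in S1D4, 26.5, 29.6, 24.4 and 60.6 in S2D4 and 8.83, 6.94, 8.01 and 8.295 in S2D30. E2F2 was at 35.04, 34.3, 33.4 and 34.6 CPM, 24.2, 22.6, 19.3 and 15.4, 7.9997, 8.11, 7.09 and 12.98 and 0.474, 0.299, 0.531 and 0.257 in the same groups. The log2 fold changes in S2D30 were -4.62 (SE 0.27, adjusted p = 1.7e-10) for E2F1 and -6.42 (SE 0.26, adjusted p = 2.5e-12) for E2F2. In GIMEN, E2F1 went from 93.2, 104 and 91.9 to 13.5, 11.04 and 10.8 CPM and E2F2 from 5.88, 6.12 and 6.73 to 0.296, 0.19 and 0.514. TFDP1, whose product pairs with E2F factors on DNA, was lower in all 4 comparisons, at -3.04 in S2D30 and -1.41 in GIMEN D30. E2F3, also an activator, was lower in S2D30 at -0.71 (SE 0.11, adjusted p = 2.1e-05) and had a log2 fold change of 0.00 (SE 0.07, adjusted p = 0.96) in GIMEN D30. Of the atypical repressors, E2F8 was at 13.5, 13.1, 9.19 and 10.9 CPM in untreated SK-N-AS and at 2, 3, 1 and 2 counts per library in S2D30, which is at the limit of detection. E2F7 was at 21.4, 22.4, 21.7 and 32.2 CPM in untreated SK-N-AS cells, 10.5, 10.7, 13.4 and 13.9 in S1D4, 47.4, 44.5, 39.8 and 10.6 in S2D4 and 57.4, 55.2, 51.01 and 66.6 in S2D30, with replicate 4 of S2D4 far below the other 3. It was called lower in S1D4 at -1.01 (SE 0.31, adjusted p = 0.016) and higher in S2D30 at 1.25 (SE 0.31, adjusted p = 0.0017), and had a change of 0.53 (SE 0.31, adjusted p = 0.14) in S2D4, not called.

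CHAF1A and CHAF1B, subunits of the factor that places histones on new DNA, were lower throughout. CHAF1A was at 87.2, 89.6, 89.2 and 85.2 CPM in untreated SK-N-AS cells, 38.6, 38.3, 30.5 and 28.4 in S1D4, 23.3, 23.2, 24.8 and 31.6 in S2D4 and 12.6, 13.4, 12.1 and 13.3 in S2D30. In GIMEN it went from 102, 104 and 107 to 11.8, 10.6 and 9.45 CPM. CHAF1B ended at 13.3% of untreated in S2D30 and 6.87% in GIMEN D30. ASF1B, a histone chaperone that hands histones to this factor, ended at 3.42% and 2.21%.

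CLSPN and TIPIN, both of which protect stalled forks, differed in depth. CLSPN, which encodes claspin, was at 24.9, 26.9, 23.3 and 41.1 CPM in untreated SK-N-AS cells, 10.7, 10.3, 11.2 and 9.899 in S1D4, 11.6, 10.9, 12.1 and 16.6 in S2D4 and 1.12, 1.796, 1.68 and 1.497 in S2D30, a final log2 fold change of -4.24 (SE 0.22, adjusted p = 4.3e-11). TIPIN was at 10.8, 11.3, 10.2 and 9.46 CPM in untreated SK-N-AS cells, 6.16, 6.03, 7.24 and 6.79 in S1D4, 7.68, 10.1, 7.92 and 7.98 in S2D4 and 6.38, 7.63, 8.55 and 6.67 in S2D30. Its S2D30 change of -0.50 (SE 0.13, adjusted p = 0.0028) was the smallest of the 45. Its S2D4 change of -0.32 (SE 0.13, adjusted p = 0.043) lost the call with the size factors of DESeq2 (adjusted p = 0.0504) and when replicate 1, 2 or 3 of untreated cells or 1, 3 or 4 of S2D4 was left out (0.061 to 0.12). In all, 13 of 19 alternatives lost it, among them no filter (edgeR adjusted p = 0.14) and the compared groups alone (0.11). In GIMEN, TIPIN went from 12.4, 12.2 and 14.6 to 2.54, 3.04 and 2.57 CPM, a change of -2.26 (SE 0.16, adjusted p = 1.6e-07). Its partner TIMELESS, not among the 45, had log2 fold changes of -1.88 in S2D30 and -3.36 in GIMEN D30.

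S2D4 cells differed from S1D4 cells by bufalin, the Neurobasal medium and 4 further days under PP121, which cannot be told apart. Against S1D4, 13 of the 45 were lower in S2D4 and 4 higher, where 26.8% of all tested genes were lower and 28.3% higher, and the median change was -0.13. The share of lower genes was thus near that of all genes. The largest falls were those of E2F1 at -1.19 (SE 0.23, adjusted p = 3.7e-04), E2F2 at -1.17 (SE 0.19, adjusted p = 5.3e-05) and TK1 at -1.07 (SE 0.36, adjusted p = 0.018). The 4 genes that rose were MCM6 at 0.69 (SE 0.10, adjusted p = 3.5e-05), MCM7 at 0.35 (SE 0.14, adjusted p = 0.036), POLD3 at 0.35 (SE 0.13, adjusted p = 0.028) and TIPIN at 0.35 (SE 0.13, adjusted p = 0.035). These counts depended on the libraries and the scaling. With only replicates 1 and 2 of the untreated and S1D4 groups, 17 were lower and 2 higher with a median of -0.33, and with only replicates 3 and 4, 5 were lower and 5 higher with a median of 0.045. With upper-quartile scaling, 18 were lower and 1 higher. Without replicate 4 of S2D4, 18 were lower and 3 higher, and the falls became -1.76 for TK1, -1.59 for E2F1 and -1.41 for E2F2. RRM2 at -1.13 (edgeR adjusted p = 4.5e-04), MCM10 at -0.80 (6.6e-04), CDC6 at -0.44, GINS1 at -0.45 and RFC2 at -0.30 were then called lower too. With only replicates 3 and 4 of the untreated and S1D4 groups TK1 was at -0.56 (edgeR adjusted p = 0.32). TK1 also lost its call with the compared groups alone (0.064) and without replicate 1 or 2 of S1D4 or replicate 1, 2 or 3 of S2D4 (edgeR adjusted p of 0.054 to 0.058). MCM7 lost its call without replicate 3 or 4 of S1D4 or replicate 4 of S2D4 (0.092 to 0.15), with a replicate block (0.059), with the compared groups alone (0.087), with upper-quartile scaling (0.101), with a term for replicates 1 and 2 against 3 and 4 (0.16) and with only replicates 1 and 2 of the untreated and S1D4 groups (0.26). POLD3 lost its call without replicate 3 or 4 of S1D4 or replicate 1 or 3 of S2D4 (0.062 to 0.11), with upper-quartile scaling (0.12), with the same term (0.11) and with either pair of replicates (0.073 and 0.11), and TIPIN without replicate 1, 2 or 4 of S1D4 or replicate 2 of S2D4 (0.054 to 0.13).

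Between 4 and 30 days of the second stage most of the genes fell again. Against S2D4, 40 of the 45 were lower in S2D30 and 0 higher, where 26.9% of all tested genes were lower and 24.4% higher, and the median log2 fold change was -1.11. The largest falls of this step were those of MCM10 at -5.50 (SE 0.34, adjusted p = 1.9e-09), TK1 at -4.92 (SE 0.54, adjusted p = 1.3e-06) and E2F2 at -4.50 (SE 0.26, adjusted p = 9.7e-10). The 5 genes not called were ORC6 at -0.23 (SE 0.17, adjusted p = 0.27), GINS3 at -0.10 (SE 0.15, adjusted p = 0.6), POLA2 at -0.34 (SE 0.16, adjusted p = 0.081), RPA2 at -0.05 (SE 0.11, adjusted p = 0.73) and TIPIN at -0.18 (SE 0.13, adjusted p = 0.27). This step shares the S2D4 libraries with the step before it.

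The 30-day changes in both lines can be set side by side, since they share no library. Across the 45 genes they had a Pearson correlation of 0.88 and a Spearman correlation of 0.86, and across the 13088 genes tested in both lines 0.56 and 0.48. These are descriptions over genes, which are not independent replicates. The difference of the change itself was tested as the interaction of line and treatment in 14 libraries. For 21 of the 45 genes the fall was deeper in GIMEN and for 7 deeper in SK-N-AS, where 24.5% and 25.2% of all tested genes differed in those directions, and 17 were not called. The lines also differed in dose, medium and the PP121 stage before bufalin, which cannot be told apart from the line.

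The deeper falls in GIMEN included TIPIN, CDC7 and GINS2. TIPIN differed by a log2 value of 1.75 (SE 0.21, adjusted p = 2.9e-06), CDC7 by 1.59 (SE 0.16, adjusted p = 4.0e-07) and GINS2 by 1.40 (SE 0.35, adjusted p = 0.0031). Of the MCM ring, MCM2, MCM4, MCM5, MCM6 and MCM7 fell deeper in GIMEN, by 1.06, 1.07, 0.92, 0.78 and 1.22, and MCM3 differed by -0.13 (SE 0.12, adjusted p = 0.42), not called. E2F2 differed by -2.22 (SE 0.42, adjusted p = 3.0e-04) and E2F1 by -1.61 (SE 0.14, adjusted p = 7.6e-08), both deeper in SK-N-AS. Few counts of E2F2 remained, at 11, 6, 12 and 6 in the S2D30 libraries and 5, 3 and 8 in GIMEN D30. Its log2 difference between the untreated lines was 2.45. GINS2 ended at 21, 19, 22 and 20 counts in S2D30 and 29, 20 and 13 in GIMEN D30, with an untreated difference of -1.88. The part of the untreated levels and of the few remaining counts in these differences was not tested. POLE2 differed by -0.93 (SE 0.32, adjusted p = 0.021), and lost this call without replicate 1 of S2D30 (edgeR adjusted p = 0.052) or replicate 1 of GIMEN D30 (0.074). RPA2 differed by -0.51 (SE 0.19, adjusted p = 0.033), a call that was lost when any of 8 of the 14 libraries was left out (edgeR adjusted p of 0.051 to 0.13). TK1, MCM10 and CDC45, with E2F2 the deepest falls in S2D30, differed by -0.55 (SE 0.39, adjusted p = 0.26), -0.72 (SE 0.49, adjusted p = 0.24) and 0.14 (SE 0.45, adjusted p = 0.84), and none of these was called.

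**Figure D5:**
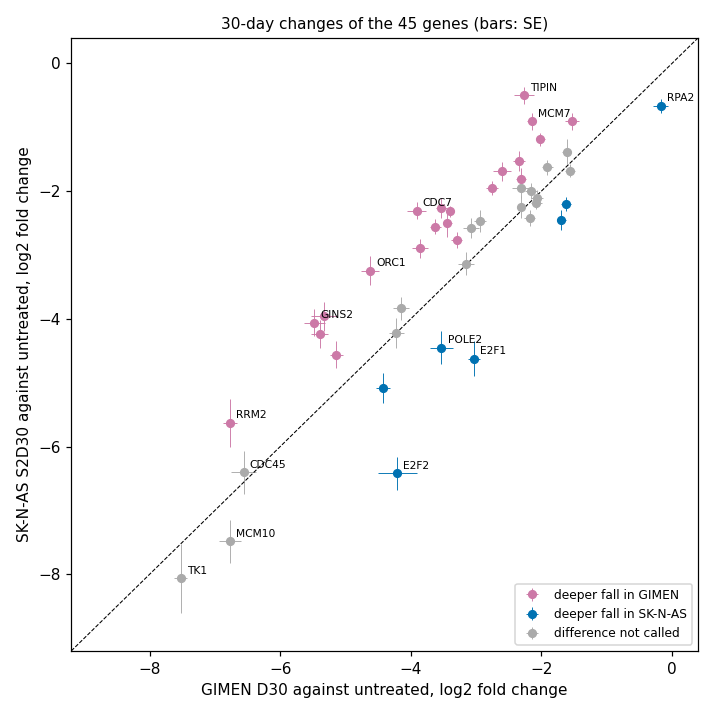
Log2 fold change of each of the 45 genes in S2D30 (vertical) against that in GIMEN D30 (horizontal), with bars for the standard error and a dashed line where both are equal. Colours mark the 21 genes with a deeper fall in GIMEN, the 7 with a deeper fall in SK-N-AS and the 17 whose difference was not called; E2F1, E2F2 and POLE2 lie below the line and TIPIN, CDC7 and GINS2 above it.

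The untreated lines already differed in many of these genes, in a total share near that of all tested genes. In untreated SK-N-AS 20 of the 45 were lower than in untreated GIMEN and 13 higher, where 35.3% and 38.6% of all tested genes were lower and higher. E2F2 was higher in SK-N-AS by a log2 value of 2.45 (SE 0.15, adjusted p = 1.1e-10), RPA2 by 2.20 (SE 0.14, adjusted p = 2.4e-10) and E2F1 by 1.04 (SE 0.09, adjusted p = 1.6e-08). GINS2 was lower at -1.88 (SE 0.16, adjusted p = 1.6e-08), TK1 at -1.64 (SE 0.13, adjusted p = 6.7e-09) and RRM2 at -1.63 (SE 0.10, adjusted p = 9.5e-11). Upper-quartile scaling gave 14 lower and 18 higher and moved the median of the 45 from -0.10 to 0.049, with a shift of 0.15 in the median of all genes, so the balance between the lines depends on the scaling. Line and medium cannot be told apart here.

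Of 53 further genes of replication chosen by function, most were lower and some were higher. In S1D4, 38 were lower and 2 higher, where 22.4% of all tested genes were lower and 17.6% higher. The counts were 37 and 4 in S2D4, against 32.2% and 30.9% of all tested genes. They were 43 and 5 in S2D30, against 36.5% and 33.8%, and 42 and 4 in GIMEN D30, against 36% and 35.5%. The median log2 fold changes of these further genes were -0.61, -0.60, -0.94 and -1.06, smaller than those of the 45 genes, a contrast that was not tested. DSCC1, which loads PCNA in an alternative loader, was at 34.01, 32.6, 32.2 and 31.8 CPM in untreated SK-N-AS and 0.56, 0.399, 1.06 and 0.599 in S2D30, a change of -5.61 (SE 0.21, adjusted p = 1.1e-12). PCLAF, a partner of PCNA, was at 32.2, 27.3, 27.7 and 23.7 and 0.732, 1.15, 1.51 and 0.898 CPM in these groups, and its change in GIMEN D30 was -5.60 (SE 0.13, adjusted p = 2.0e-11). TOP1, which relaxes DNA ahead of the fork, was higher in S2D4 at 1.16 (SE 0.14, adjusted p = 1.6e-06) and S2D30 at 0.68 (SE 0.14, adjusted p = 2.7e-04). It was at 111, 108, 124 and 147 CPM in untreated SK-N-AS and 310.0, 295, 299.8 and 193 in S2D4, and lower in GIMEN D30 at -0.23 (SE 0.07, adjusted p = 0.012). By function, the counts in S2D30 stand beside the same 36.5% lower and 33.8% higher of all tested genes. Of 14 other subunits of the same complexes 11 were lower and 1 higher, and of 21 other replication factors 19 and 1. Of 10 other genes of nucleotide supply 7 were lower and 2 higher, and of 8 other E2F and DP genes 6 and 1.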

How the data were processed

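RNA from 22 libraries had been read in pairs of 150 bases, per the labels, and the authors deposited raw counts per gene for all of them in a single table. The aligner, the counter, the genome build, the annotation and the use of strand are not given in the sources used here, which matters for genes that overlap others. Columns were matched to samples by title. The column of replicate 2 of S2D30 repeats the name of the line before the title and was assigned because it matches no other sample.

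The counts were tested with edgeR 4.0.16 in R 4.3.3 (limma 3.58.1), with TMM scaling, filterByExpr (minimum count 10, minimum total 15) and the quasi-likelihood F test. The 16 SK-N-AS libraries formed 1 model, the 6 GIMEN libraries another, and the difference between lines was fitted on the 14 untreated and 30-day libraries. P-values were adjusted by the Benjamini-Hochberg method across each model's genes, with a threshold of 0.05, and the standard error is the size of the log2 fold change divided by the square root of F. CPM uses TMM factors over all 22 libraries. The procedure was tested on simulated data. DESeq2 1.42.0, other scalings and filters, a replicate block and each library left out were tried as alternatives.

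The 45 genes, the other lists and the tests were chosen with earlier results of these data known. The rule for values per library named the 3 genes with the lowest and the 3 with the highest log2 fold change in each comparison with untreated cells, the gene with the highest mean CPM of each role, and each gene not called lower. Most of these genes have such values, though not in every group. MCM3, ORC6 and DBF4 have fold changes or percentages and no full set of library values. TYMS has library values only for untreated SK-N-AS and S2D30. Of 53 further genes, the 2 lowest and 2 highest were taken, with RRM2B, ORC2, RFC1, POLD2 and RPA1 as partners, and 1 gene that the rule names is not reported here. Other genes named, such as ORC1, CDC6 and MCM5, and those named in the remaining comparisons were chosen after their values were seen.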

Additional observations from a re-analysis of the deposited data

Results flagged for a closer look

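Of 156 gene and group pairs examined in the SK-N-AS groups, 17 held a library whose gap to the nearest of the others took up most of the range of its group (Dixon's criterion), and chance flags about 1 in 20 groups. Replicate 4 of S2D4 accounted for 11 of them. It was highest for RRM2 at 30.6 CPM, TK1 at 21.0, MCM7 at 471, FEN1 at 75.6, E2F1 at 60.6, MCM10 at 19.9, ASF1B at 18.6 and POLD2 at 314 CPM. It was lowest for RRM1 at 39.5 CPM, CDC7 at 11.6 and TOP1 at 193 CPM. The same library had the lowest mesenchymal sum of its group.

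Replicate 4 of S2D30 was highest for TYMS at 5.99 CPM and for DBF4 at 14.2 CPM. RRM2B stood at 25.2 CPM in replicate 3 of S1D4, TIPIN at 10.1 CPM in replicate 2 of S2D4, and E2F7 at 32.2 CPM in replicate 4 of untreated cells, each the highest of its group. ORC2 was lowest in replicate 2 of untreated cells, at 37.3 CPM.

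The 30-day change differed between the lines by a test of the interaction (edgeR) for E2F2 at a log2 value of -2.22, E2F1 at -1.61 and POLE2 at -0.93, with a deeper fall in SK-N-AS. It differed for GINS2 at 1.40, CDC7 at 1.59 and TIPIN at 1.75, with a deeper fall in GIMEN. E2F2 held only 5, 3 and 8 counts in the GIMEN D30 libraries. The lines also differed in dose and medium, which cannot be told apart from the line.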

How the results depend on the processing

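Across the alternatives, 414 values of counts and medians of the 45 genes stayed within 1.5 times the reported count or within the spread between libraries, 10 moved further and 2 changed sign. For single genes and levels, 2186 values stayed the same in call or level and 3 moved. A further 59 values lost their call, 16 gained it and 0 called values changed sign. A gene without a value under an alternative was counted as the same. The step from S1D4 to S2D4 depended most on the processing. Its count of higher genes, 4 as reported, was 1 with upper-quartile scaling, 1 with a term for replicates 1 and 2 against 3 and 4, 2 with the compared groups alone, 2 with only replicates 1 and 2 of the untreated and S1D4 groups, and 1 to 4 with a library left out (2 without replicate 3 and 1 without replicate 4 of S1D4). Its count of lower genes, 13 as reported, was 5 with only replicates 3 and 4, and its median went from -0.13 to -0.33 with only replicates 1 and 2 and reversed to 0.045 with only replicates 3 and 4, alternatives chosen after seeing the data. The S1D4 median was -1.33 with only replicates 3 and 4, and the S2D4 median -1.59 with the term for replicates 1 and 2 against 3 and 4. Upper-quartile scaling reversed the median between the untreated lines to 0.049. For these changes the cause was not tested. With a library left out, 44 to 45 genes were lower in S1D4, 40 to 43 in S2D4, 45 in S2D30 and 44 in GIMEN D30.

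The replicate numbers did not meet the criterion for pairing the libraries, a correlation of deviations above 0.1 in every pair: 5 of 27 pairs exceeded it and 6 were best with their own number. Between untreated SK-N-AS and S1D4, however, replicates 1, 2 and 4 had correlations of 0.31, 0.28 and 0.31 and were best with their own number, and replicate 3 had 0.033. With the replicate block, 44, 43, 45 and 44 genes were lower in S1D4, S2D4, S2D30 and GIMEN D30, and in the step from S1D4 to S2D4 14 were lower and 3 higher, without MCM7 (0.35, edgeR adjusted p = 0.059).

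Groups had 3 or 4 libraries, with totals from 16456484 counts. Genes of a few counts, such as TK1 and E2F8 in S2D30 and E2F2 in GIMEN D30, thus have imprecise levels.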
